A study of Rattus norvegicus with 4 samples.

Results

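The 9 genes described here make, move or use acetyl-CoA and malonyl-CoA: Acly, Acss1, Acss2, Slc25a1, Acaca, Acacb, Mlycd, Fasn and Scd. They were chosen by symbol in the deposited table, where each of the 9 had its own gene identifier among 14137 in all. The cells were ventricular cardiomyocytes of neonatal rats (NRVMs), heart muscle cells taken from newborn animals into culture, and every culture had been infected with lentivirus carrying a short hairpin RNA. In the CRAT shRNA group (labelled KO, 2 libraries) the hairpin was directed at Crat, carnitine acetyltransferase, and in the control shRNA group (labelled WT, 2 libraries) it was a control hairpin. RNA was taken 5 days later, and libraries made from total RNA were sequenced. The arms differ by a hairpin against the Crat transcript, not by a deleted allele, and the labels do not say whether replicates were grown apart, so p-values measure the spread between these libraries, which may be technical.

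Acetyl-CoA is the carbon donor for fatty acid and sterol synthesis and for protein acetylation. It cannot cross the inner mitochondrial membrane, so mitochondrial acetyl groups leave as citrate through the carrier Slc25a1 and are released in the cytosol by ATP citrate lyase, Acly. The acetyl-CoA synthetases Acss2, in the cytosol and nucleus, and Acss1, in the matrix, make it from acetate, while Crat moves acetyl groups to and from carnitine. The carboxylases Acaca and Acacb turn acetyl-CoA into malonyl-CoA, which Fasn builds into palmitate and which blocks the carnitine palmitoyltransferase at the outer membrane. In heart, where little fat is made, malonyl-CoA is best known as that brake on fatty acid oxidation, set by Acacb on the mitochondrial surface and lifted by malonyl-CoA decarboxylase, Mlycd. Scd puts the first double bond into saturated fatty acids.

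Levels are given as RPM, the reads of a gene per 1000000 reads of its library, without division by gene length, so levels are compared between libraries and not between genes. The libraries held 321516 and 1622998 reads in the CRAT shRNA group and 23680064 and 1321735 in the control shRNA group, so a single read was worth 3.11 and 0.616 RPM in the CRAT shRNA libraries and 0.0422 and 0.757 RPM in the control shRNA libraries. Crat itself stood at 24.9 and 19.7 RPM in the CRAT shRNA libraries, against 148 and 156 RPM in the control shRNA libraries. The CRAT shRNA values rest on 8 and 32 reads, and the exact binomial 95% interval of replicate 1 was 10.7 to 49.0 RPM. The log2 fold change of Crat was -2.72 ± 0.19 (SE, limma, Benjamini-Hochberg adjusted p = 7.32e-06). Of 14 cardiomyocyte markers tested, 12 were lower, beside 6.36% lower and 12.6% higher over all genes tested. These 14 markers summed to 13439 and 13908 RPM in the CRAT shRNA libraries against 33825 and 34252 RPM in the control shRNA libraries. Smooth muscle and pericyte markers summed to 1947 and 1902 RPM with CRAT shRNA against 5332 and 5442 RPM with control shRNA (6 of 8 lower, 1 higher), and fibroblast markers to 16814 and 17159 RPM with CRAT shRNA against 22967 and 23953 RPM with control shRNA (6 of 10 lower, 2 higher). Of 10 markers of adipocytes, which are rich in lipogenic enzymes, 3 had a row in the table (Fabp4, Lipe and Cidea), and these summed to 56.0 and 33.3 RPM with CRAT shRNA against 34.0 and 31.8 RPM with control shRNA. Endothelial markers summed to 71.5 and 65.9 RPM with CRAT shRNA against 57.0 and 67.3 RPM with control shRNA (1 of 6 tested higher, 1 lower). Vwf had no read in either CRAT shRNA library and 0.380 and 0.757 RPM in the control shRNA libraries. At 3.11 and 0.616 RPM a read, the CRAT shRNA libraries can hardly tell such levels from 0. Leukocyte markers summed to 74.6 and 63.5 RPM with CRAT shRNA against 57.8 and 55.2 RPM with control shRNA. CRAT shRNA replicate 1 had no read of Csf1r or Cd3e. A read there is worth 3.11 RPM, more than either gene had in either control library. Of 9 leukocyte and 3 adipocyte markers tested, 0 passed in limma, edgeR or DESeq2, and at an unadjusted p under 0.05 there were 0 in limma, 1 leukocyte marker in edgeR and 0 in DESeq2. Without CRAT shRNA replicate 2, however, the median log2 fold change of the 3 adipocyte markers was 1.06, against 0.62 with all libraries. Some adipocyte and leukocyte markers then passed, in a fit where more of all genes passed too. With voom 1 leukocyte marker was higher. Without control shRNA replicates 1 and 2 in turn, 4 and 3 fibroblast markers and 5 and 4 smooth muscle and pericyte markers were lower, and 0 of 6 endothelial markers passed in limma, with 1 at an unadjusted p under 0.05 each time. The part that cell makeup plays in the results was not tested, and in such bulk samples fewer cells of a type and less RNA per cell cannot be told apart.

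Of the 9 genes, 5 passed the test, in both directions. Acacb (2.84-fold), Mlycd (1.76-fold) and Fasn (1.35-fold) were higher in the CRAT shRNA libraries, and Scd (0.362 of control) and Acly (0.646 of control) were lower. Slc25a1, Acaca, Acss2 and Acss1 did not pass. All 9 cleared the filter of a mean of at least 1 RPM, Acss1 with a mean of 1.01 that rests on the control shRNA group. Over the 12949 genes tested, 12.6% were higher and 6.36% lower (19.0% in either direction), so that 3 of 9 higher and 2 of 9 lower lie above both shares, in a set of 9. Values of the groups did not overlap for 6 of the 9, and for 60.8% of all genes tested. Among those 6 is Acss1, whose nearest values are 1 read in CRAT shRNA replicate 2 and 1 read in control shRNA replicate 2, so library depth alone sets them apart. The median log2 fold change was -0.31 over the 9 genes and 0.15 over all genes tested. Over the 9 genes it was -0.067 without CRAT shRNA replicate 2, -0.513 under TMM scaling and -0.128 over the 8 that averaged 10 RPM or more. The fit used log2(RPM + 1) in limma with a variance trend, and an exact permutation test of 2 libraries against 2 cannot go below p = 0.333. Scaling to the library total leaves the median gene above 0: with TMM scaling, which centres the bulk of genes, that median was -0.04 and the calls over all genes were 1007 higher and 1278 lower, in place of 1631 higher and 823 lower. Set against the median of all genes, the changes were 1.36 for Acacb, 0.67 for Mlycd, 0.29 for Fasn, -0.78 for Acly and -1.61 for Scd.

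**Figure D1:**
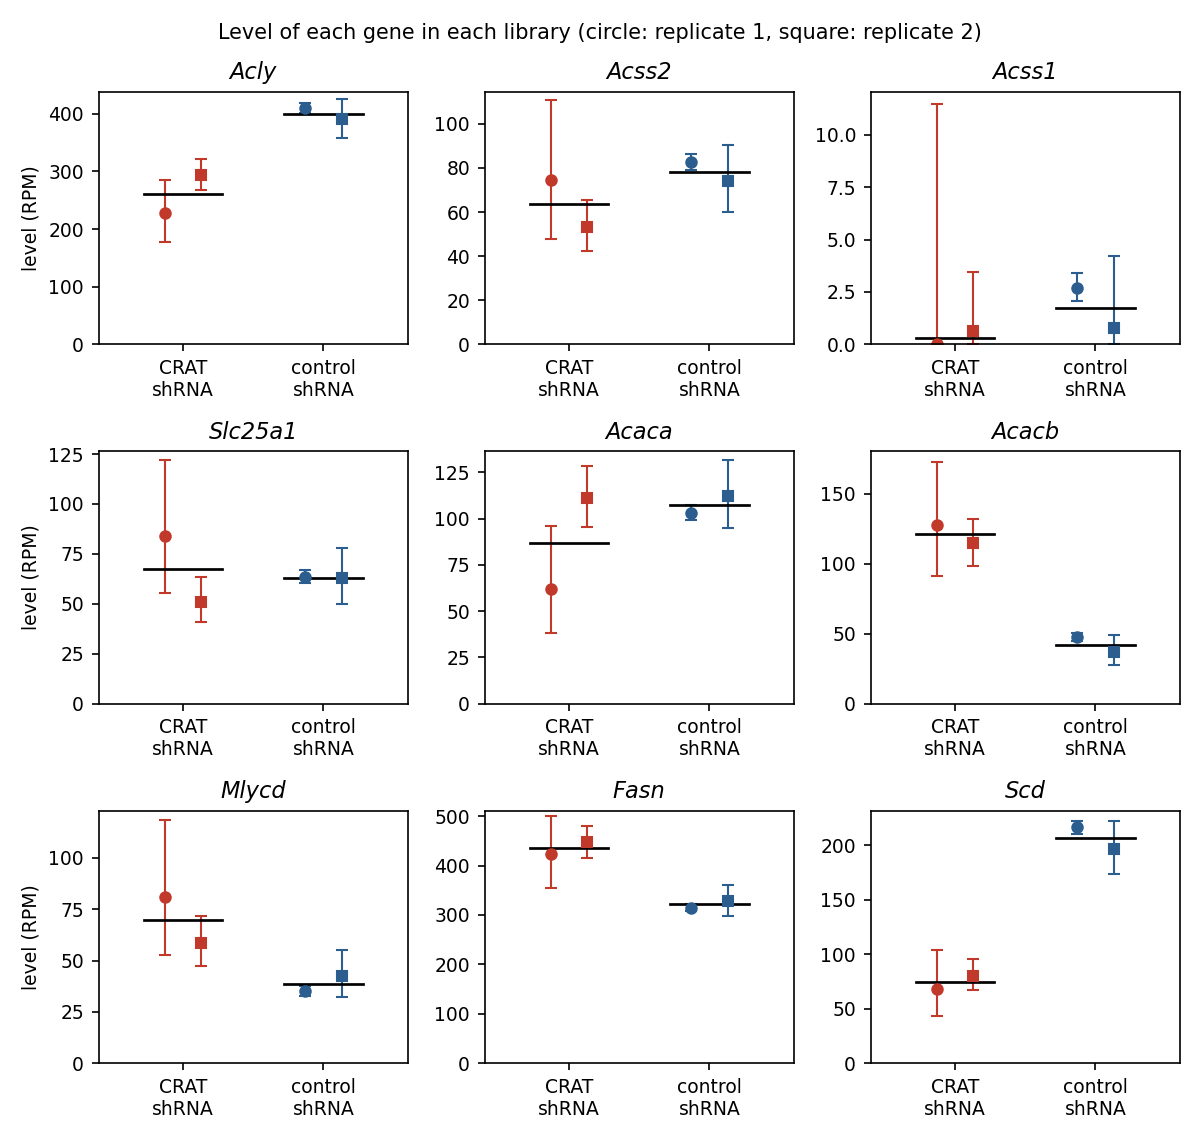
Level of the 9 genes in RPM, with CRAT shRNA at the left of each panel and control shRNA at the right; circles are replicate 1, squares replicate 2, whiskers the exact 95% binomial interval of the read count (counting error only) and lines the group mean. Acacb, Mlycd and Fasn sit higher and Scd and Acly lower in both CRAT shRNA libraries, while the whiskers of CRAT shRNA replicate 1, the shallowest library, are the widest of each panel.

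The stretches before the annotated start of the 3 genes that passed both here and in the authors' deposited table are shown, because Acly and Scd were lower and Acacb higher in the same cells. The sequences are RefSeq's, build GRCr8, read on the gene's strand, 250 bases each: Acly at chr10:85963632-85963881 (minus strand), Scd at chr1:253231732-253231981 (minus strand) and Acacb at chr12:48138215-48138464 (minus strand). Capitals mark the letters CCAAT, the box bound by NF-Y, and GGGCGG, the GC box, read on either strand.
Acly: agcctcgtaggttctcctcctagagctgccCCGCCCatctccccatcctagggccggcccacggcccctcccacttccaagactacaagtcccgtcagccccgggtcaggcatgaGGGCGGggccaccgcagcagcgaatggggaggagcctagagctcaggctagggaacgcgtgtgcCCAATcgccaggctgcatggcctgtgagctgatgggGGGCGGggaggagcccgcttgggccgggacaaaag
Scd: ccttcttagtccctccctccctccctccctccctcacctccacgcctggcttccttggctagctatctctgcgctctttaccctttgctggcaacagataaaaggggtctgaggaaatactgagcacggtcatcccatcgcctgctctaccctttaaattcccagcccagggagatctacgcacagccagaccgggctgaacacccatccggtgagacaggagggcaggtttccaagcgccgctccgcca
Acacb: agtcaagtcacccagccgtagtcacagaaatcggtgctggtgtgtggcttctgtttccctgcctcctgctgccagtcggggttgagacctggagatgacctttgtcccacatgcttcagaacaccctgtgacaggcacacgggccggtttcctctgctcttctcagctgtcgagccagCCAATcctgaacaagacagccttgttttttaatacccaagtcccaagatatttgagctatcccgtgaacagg
The search also covered the 50 bases after the start and the letters TCACNCCAC (the core of the sterol regulatory element), CACGTG (an E-box) and a DR4 element (a pair of AGGTCA repeats with NNNN between them), on both strands, and no match overlapped another. Counting the base just before the start as -1, CCAAT lay at -71 to -67 in Acly and at -72 to -68 in Acacb, a nearly equal distance in a gene that was lower and a gene that was higher. The GC box occurred in Acly 3 times and in neither of the others, and the Scd window held none of the 5 motifs. Of the 6 genes with a window in the table (Acly, Acss2, Slc25a1, Acacb, Mlycd and Scd), 5 held CCAAT and 4 the GC box, as did 37.5% and 33.1% of all 33469 windows. The other 3 sets of letters were in none of the 6 windows, and in 1.12% (TCACNCCAC), 6.42% (CACGTG) and 0.006% (DR4) of all windows. A match is a run of letters and does not show a binding site.

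Acly (ENSRNOG00000016924), which cleaves exported citrate into acetyl-CoA and oxaloacetate, had 227 and 293 RPM in the CRAT shRNA libraries, against 410 and 390 RPM in the control shRNA libraries. Both CRAT shRNA libraries lay below both controls, and the lower of them rests on 73 reads (95% interval 178 to 285 RPM, exact binomial). The log2 fold change was -0.63 ± 0.12 (SE; limma adjusted p = 0.00538), and edgeR's quasi-likelihood test on the recovered reads gave -0.74 (adjusted p = 6.55e-15). The call was lost without control shRNA replicate 1 (-0.60, adjusted p = 0.164) and without control shRNA replicate 2 (-0.67, adjusted p = 0.13). In the authors' deposited table the adjusted p of Acly was 1.14e-06.

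Slc25a1 (ENSRNOG00000038001), the citrate carrier that feeds Acly, had 84.0 and 51.1 RPM in the CRAT shRNA libraries, against 63.4 and 62.8 RPM in the control shRNA libraries. The CRAT shRNA values lay on either side of the controls. Its log2 fold change was 0.05 ± 0.23 with a 95% interval of -0.465 to 0.573 (limma adjusted p = 0.898), and the sign turned under TMM scaling (-0.15). Without CRAT shRNA replicate 2 the value was 0.41 and passed (adjusted p = 0.0301), and without CRAT shRNA replicate 1 it was -0.30 and did not (adjusted p = 0.152). Acly and its carrier had different outcomes in the test, but the difference between them was not tested.

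Acss2 (ENSRNOG00000018755), which makes acetyl-CoA from acetate in the cytosol and nucleus, had 74.6 and 53.0 RPM in the CRAT shRNA libraries, against 82.6 and 74.1 RPM in the control shRNA libraries. The groups touch, since the higher CRAT shRNA value lies between the controls, and that value rests on 24 reads. The log2 fold change of -0.31 ± 0.20 did not pass (95% interval -0.75 to 0.13; limma adjusted p = 0.321). On the recovered reads edgeR (-0.71, adjusted p = 0.000109) and voom (-0.53, adjusted p = 0.00711) called it lower and DESeq2 did not (-0.59, adjusted p = 0.209), and it also passed without CRAT shRNA replicate 1 (-0.55, adjusted p = 0.0111). Acss1 (ENSRNOG00000007102), the mitochondrial acetate enzyme, was barely detected, with 0 and 1 reads in the CRAT shRNA libraries and 63 and 1 reads in the control shRNA libraries. Its levels were 0 and 0.616 RPM with CRAT shRNA against 2.66 and 0.757 RPM with control shRNA, and at the depth of CRAT shRNA replicate 1 no read allows a level of up to 9.33 RPM (3 reads, a one-sided limit; the two-sided exact 95% interval reaches 11.5 RPM; both cover counting error only), so a difference was not detectable (limma adjusted p = 0.533).

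Of the pair of carboxylases that make malonyl-CoA, Acacb passed the test and Acaca did not. Acacb (ENSRNOG00000000658), the isoform on the outer mitochondrial membrane and the main one of heart and muscle, had 128 and 115 RPM in the CRAT shRNA libraries, against 47.5 and 37.1 RPM in the control shRNA libraries. The groups are far apart, and the 95% counting interval of the shallowest library (91.5 to 173 RPM, 41 reads) clears both controls. The log2 fold change was 1.505 ± 0.18 (SE; limma adjusted p = 0.000311; authors' deposited table, adjusted p = 0.0001045). Leaving out a library in turn left it between 1.33 and 1.68, with each of these values past the threshold.

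Acaca (ENSRNOG00000034013), the cytosolic isoform that supplies fatty acid synthesis, had 62.2 and 111 RPM in the CRAT shRNA libraries, against 103 and 112 RPM in the control shRNA libraries. CRAT shRNA replicate 2 lay between the controls and replicate 1, with 20 reads, below them. The log2 fold change was -0.37 ± 0.24 (95% interval -0.90 to 0.165; limma adjusted p = 0.329). That value rests on the shallow library: it was 0.05 without CRAT shRNA replicate 1 (adjusted p = 0.807) and -0.78 without CRAT shRNA replicate 2 (adjusted p = 0.000529). Within a library the log2 ratio of Acaca to Acacb was -1.02 and -0.05 in the CRAT shRNA libraries, against 1.10 and 1.57 in the control shRNA libraries. The groups do not overlap in that ratio, which the scaling of a library hardly touches, and differ by -1.87 (exact permutation p = 0.333, two-sided, the smallest this design allows).

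Mlycd (ENSRNOG00000014522), which breaks malonyl-CoA down again, had 80.9 and 58.5 RPM in the CRAT shRNA libraries, against 35.2 and 42.4 RPM in the control shRNA libraries. The groups do not overlap, although the nearest values, 58.5 and 42.4 RPM, have counting intervals that meet (47.4 to 71.6 and 32.0 to 55.0 RPM). The log2 fold change was 0.82 ± 0.22 (SE; limma adjusted p = 0.0278). The call was lost under TMM scaling (0.62, adjusted p = 0.0792), in DESeq2 (0.61, adjusted p = 0.271), without control shRNA replicate 1 (0.69, adjusted p = 0.373), without control shRNA replicate 2 (0.95, adjusted p = 0.235) and in the authors' deposited table (adjusted p = 0.3595). The log2 ratio of Acaca to Mlycd was -0.37 and 0.91 in the CRAT shRNA libraries, against 1.53 and 1.38 in the control shRNA libraries. Both control values are higher (exact permutation p = 0.333), and CRAT shRNA replicate 1 rests on 20 reads of Acaca. Acacb, which also makes malonyl-CoA, had a log2 fold change of 1.505, larger than that of Mlycd. The Acaca ratio therefore does not stand for making against breaking as a whole.

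Fasn (ENSRNOG00000045636), the multidomain synthase that builds palmitate from malonyl-CoA, had 423 and 447 RPM in the CRAT shRNA libraries, against 315 and 328 RPM in the control shRNA libraries. The replicates of each group lie close together and the groups do not overlap. However, the counting intervals of CRAT shRNA replicate 1 (355 to 500 RPM) and control shRNA replicate 2 (298 to 361 RPM) meet. The log2 fold change was 0.43 ± 0.08 (SE; limma adjusted p = 0.00512), the smallest of the 5 that passed. It was 0.23 under TMM scaling (adjusted p = 0.101) and 0.26 in DESeq2 (adjusted p = 0.19), and did not pass without control shRNA replicate 1 (0.40, adjusted p = 0.151), without control shRNA replicate 2 (0.47, adjusted p = 0.111) or in the authors' deposited table (adjusted p = 0.3063). Measured within a library, Fasn over Acly stood at a log2 ratio of 0.90 and 0.61 in the CRAT shRNA libraries, against -0.38 and -0.25 in the control shRNA libraries. So Fasn was higher relative to Acly in each CRAT shRNA library than in each control (exact permutation p = 0.333). That separation follows from the levels of both genes, which differed in opposite directions without overlap, and adds no further support.

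Scd (ENSRNOG00000013552), the stearoyl-CoA desaturase that makes oleate, had 68.4 and 80.1 RPM in the CRAT shRNA libraries, against 216 and 197 RPM in the control shRNA libraries. The counting interval of the shallowest library (42.9 to 104 RPM, 22 reads) ends well below both controls. Its log2 fold change was -1.47 ± 0.14 (SE; limma adjusted p = 6.54e-05; authors' deposited table, adjusted p = 1.044e-11). Its paralogue Scd2, the form that carries most of the reads of the pair here, had 1194 and 1208 RPM in the CRAT shRNA libraries, against 1476 and 1402 RPM in the control shRNA libraries, with a log2 fold change of -0.26 ± 0.05 (limma adjusted p = 0.00746). Scd made up 5.42% (95% interval 3.43 to 8.09%) and 6.22% (5.22 to 7.34%) of the reads of the pair in the CRAT shRNA libraries, against 12.8% (12.45 to 13.11%) and 12.3% (10.93 to 13.78%) in the control shRNA libraries. These exact binomial intervals do not overlap between the groups and cover counting error only. Scd and Scd2 are close copies whose reads can be split between them, so their separate values are uncertain. Relative to Fasn in the same library, Scd had a log2 ratio of -2.61 and -2.46 in the CRAT shRNA libraries. In the control shRNA libraries it was -0.54 and -0.74 (exact permutation p = 0.333). The lack of overlap follows from the levels of both genes, which differed in opposite directions, and adds no further support.

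**Figure D2:**
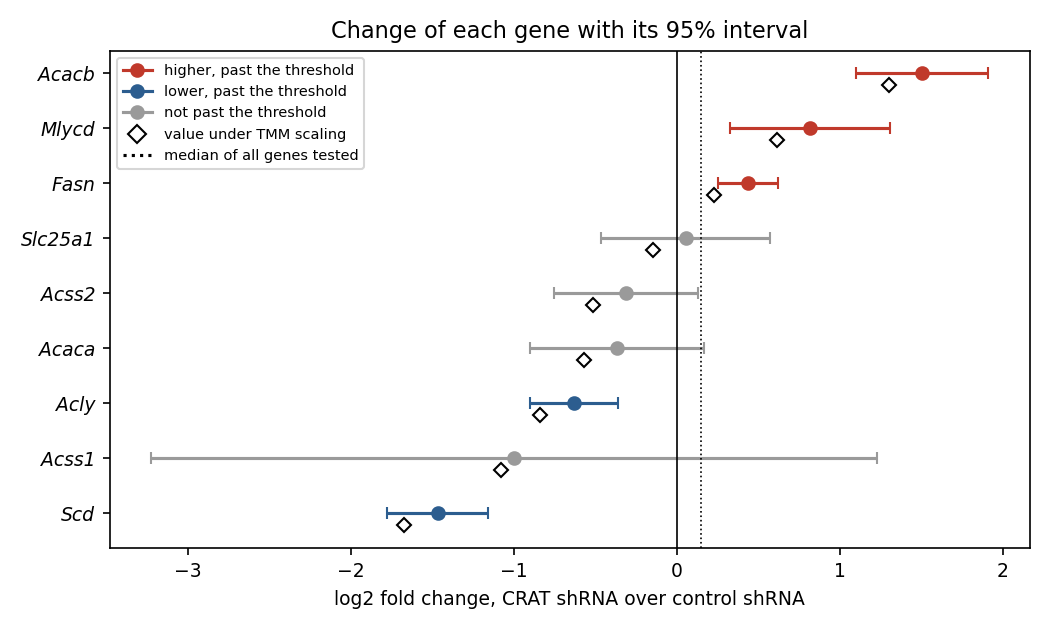
Log2 fold change of CRAT shRNA over control shRNA for each of the 9 genes, with its 95% interval from limma; colour shows the call, diamonds the value under TMM scaling and the dotted line the median of all genes tested. Acacb at 1.505 and Scd at -1.47 mark the ends of the range, and the diamond of Fasn lies at 0.23.

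Profiles most like those of Acly and Scd were sought over the 4 libraries among genes with a symbol that averaged 20 RPM or more, by the Euclidean distance between centred log2(RPM + 1) values. For Acly they were Hapln3 (distance 0.05, with 96.4 and 123 RPM in the CRAT shRNA libraries against 174 and 171 RPM in the control shRNA libraries), Dnajc1 (0.05) and Add3 (0.05). For Scd they were Filip1l (0.08, with 84.0 and 94.9 RPM with CRAT shRNA against 246 and 238 RPM with control shRNA), Col8a1 (0.11) and Vim (0.12), the intermediate filament protein vimentin. None of these 6 is a lipid enzyme by its usual description, and with 4 libraries in 2 groups a small distance says little beyond a similar difference between the groups.

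Among partner enzymes of fatty acid and lipid synthesis, lower calls fell on genes of fatty acid lengthening and desaturation. Higher calls fell on genes of glycerolipid assembly. Of 24 lipogenic partner enzymes tested, 8 were lower and 3 higher, with a median log2 fold change of -0.145 against 0.15 over all genes. The 3 higher lie near the 12.6% of all genes tested that were higher, and the 8 lower above the 6.36% lower. The 8 lower genes are all among the 12 elongation and desaturation genes (median -0.44), and the 3 higher ones among the 9 glycerolipid genes (median 0.37), a division of the list made after the values were seen. Hacd1, the dehydratase of the elongation cycle in muscle, had 46.7 and 35.1 RPM in the CRAT shRNA libraries, against 108 and 94.6 RPM in the control shRNA libraries, a log2 fold change of -1.30 ± 0.19 (limma adjusted p = 0.00127). Elovl6, which extends the palmitate made by Fasn, had 24.9 and 18.5 RPM with CRAT shRNA against 36.6 and 44.6 RPM with control shRNA (-0.88, adjusted p = 0.0427), and the desaturase Fads2 96.4 and 113 RPM with CRAT shRNA against 146 and 148 RPM with control shRNA (-0.49, adjusted p = 0.0316); these 2 were chosen after their values were seen. On the other side stood Dgat2, which makes triglyceride, with 43.5 and 30.2 RPM in the CRAT shRNA libraries against 12.2 and 7.57 RPM in the control shRNA libraries (1.81 ± 0.34, limma adjusted p = 0.00538). The acyltransferase Agpat3 followed at 1.72 ± 0.20 (adjusted p = 0.000257) and the phosphatidate phosphatase Lpin3 at 0.93 ± 0.28 (adjusted p = 0.0441). Over all genes tested, TMM scaling called 1007 higher and 1278 lower. With CRAT shRNA replicate 2 left out, the median of the 24 turned to 0.076, with more calls in this list as over all genes. Under TMM scaling 10 were lower and 2 higher, and without either control library only Agpat3 passed: Dgat2 had adjusted p = 0.0716 and 0.179, Hacd1 0.113 and 0.0737, and Lpin3 0.455 and 0.304 without control shRNA replicates 1 and 2 in turn.

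Genes that feed or spend acetyl-CoA elsewhere were lower in 7 of 28 cases and higher in 1, with a median of -0.21. Of all genes tested, 6.36% were lower and 12.6% higher. Hmgcs1, which joins acetyl-CoA to acetoacetyl-CoA at the entry of sterol synthesis, had 236 and 231 RPM in the CRAT shRNA libraries, against 578 and 561 RPM in the control shRNA libraries (log2 fold change -1.28 ± 0.08, limma adjusted p = 3.63e-06). The acyl-CoA thioesterases Acot7 and Acot9 had values of -1.17 and -0.78 (limma adjusted p = 0.0365 and 0.0297). Acot7 had 12.4 RPM in CRAT shRNA replicate 1, not far above the level of 3 reads in that library (9.33 RPM). Slc25a20, the carnitine-acylcarnitine carrier, had a value of 0.79 (limma adjusted p = 0.0336). Under TMM scaling 11 of the list were lower and Slc25a20 did not pass (limma adjusted p = 0.0997). The edgeR test called 13 lower and 1 higher, which was not Slc25a20 (0.33, adjusted p = 0.111). Over all genes tested, 823 were lower as reported, 1278 under TMM scaling and 2065 in edgeR. In DESeq2 Slc25a20 did not pass either (0.52, adjusted p = 0.333). Leaving out CRAT shRNA replicates 1 and 2 in turn gave medians of -0.168 and -0.309, with more calls in this list as over all genes. Without either control library Hmgcs1 alone passed. The adjusted p without control shRNA replicates 1 and 2 in turn was 0.399 and 0.485 for Acot7, 0.374 and 0.33 for Acot9, and 0.21 and 0.449 for Slc25a20.

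Of 16 genes that supply citrate or the NADPH that Fasn consumes, 4 were lower and 12 did not pass, with a median of -0.12. The share lower over all genes tested was 6.36%. Among the lower genes were the mitochondrial malate dehydrogenase Mdh2 (-0.58 ± 0.10, limma adjusted p = 0.00229), the mitochondrial isocitrate dehydrogenase Idh2 (-0.56 ± 0.09, adjusted p = 0.00237) and glutamate dehydrogenase, Glud1 (-0.46, adjusted p = 0.0257). Malic enzyme, Me1, a cytosolic source of NADPH, had 168 and 141 RPM in the CRAT shRNA libraries against 163 and 151 RPM in the control shRNA libraries, a log2 fold change of -0.03. TMM scaling gave 7 lower and edgeR 11, beside 1278 and 2065 lower over all genes tested. Without CRAT shRNA replicates 1 and 2 in turn the median was -0.191 and -0.131, with more calls in this list as over all genes. Without control shRNA replicate 1 these 3 genes had adjusted p between 0.123 and 0.404, and without control shRNA replicate 2 between 0.0709 and 0.206, so that none of them passed in limma with a single control library.

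A list of 13 genes held carnitine palmitoyltransferases, mitochondrial fatty acid synthesis genes and genes of CoA handling. Not all of them are acted on by malonyl-CoA (Cpt2 is not). Of these 13, 2 were higher and 11 did not pass, with a median of 0.35. The 2 of 13 lie near the 12.6% of all genes tested that were higher. Cpt1a, the outer-membrane palmitoyltransferase that malonyl-CoA inhibits, had 96.4 and 77.6 RPM in the CRAT shRNA libraries, against 29.7 and 21.9 RPM in the control shRNA libraries (1.72 ± 0.22, limma adjusted p = 0.000546). Cpt2, its partner at the inner membrane, was higher by 2.07 ± 0.23 (adjusted p = 0.000206). Both also passed with either control library left out. Cpt1b, the muscle isoform of the same malonyl-CoA target, had 43.5 and 54.2 RPM with CRAT shRNA against 27.2 and 31.8 RPM with control shRNA, without overlap, and did not pass (0.71 ± 0.23, adjusted p = 0.0584). In mitochondrial fatty acid synthesis, Mcat, which loads malonyl groups, had a log2 fold change of -0.13 and the condensing enzyme Oxsm one of -0.24, and neither passed. With voom 5 of this list were higher and 1 lower, beside 3476 higher and 1250 lower over all genes tested. Leaving out CRAT shRNA replicate 1 or 2 also gave more higher calls, in this list as over all genes. With the filter at a mean of 10 RPM 4 of 12 were higher, as many as had an unadjusted p under 0.05, so the calls beyond Cpt1a and Cpt2 depend on the setting.

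AMP-activated protein kinase phosphorylates and inhibits both carboxylases. Of 15 genes of this kinase and other carboxylase regulators, 4 were higher and 11 did not pass, beside 12.6% higher over all genes tested. Prkaa2, the catalytic subunit typical of muscle, had 106 and 116 RPM in the CRAT shRNA libraries, against 65.4 and 56.7 RPM in the control shRNA libraries (0.86 ± 0.16, limma adjusted p = 0.00446). Stk11, the upstream kinase LKB1, and its partner Strada had values of 0.74 and 1.18 (adjusted p = 0.00907 and 0.0146), and the regulatory subunit Prkag1 one of 0.68 (adjusted p = 0.0126), on an identifier that carries more than one symbol. None of the 4 passed in DESeq2 (adjusted p = 0.0576, 0.166, 0.131 and 0.0794 for Prkaa2, Stk11, Strada and Prkag1) or without either control library. Leaving out control shRNA replicate 1 gave them adjusted p = 0.0887, 0.217, 0.188 and 0.251, and leaving out control shRNA replicate 2 gave 0.168, 0.151, 0.287 and 0.052. Over the 15 genes edgeR called 5 higher and 4 lower, beside 1774 higher and 2065 lower over all genes tested. Without CRAT shRNA replicate 1 there were more calls, some of them lower, as there were over all genes. The median of the 15 was 0.16, and -0.045 under TMM scaling. The other biotin-dependent carboxylases and biotin enzymes, which share the cofactor of Acaca and Acacb, held 0 of 8 past the threshold in limma, with 0 at an unadjusted p under 0.05, and 0 of 8 in edgeR and DESeq2, with 1 and 0 at an unadjusted p under 0.05. In limma 19.0% of all genes tested passed in either direction. Mccc2, a subunit of methylcrotonyl-CoA carboxylase, had a value of 0.31 and Pccb, of propionyl-CoA carboxylase, one of -0.23. Without CRAT shRNA replicate 2 some of these 8 passed, in a fit where more of all genes passed too.

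Regulators that control lipogenic genes were higher in 3 of 22 cases and lower in 1, with a median of 0.29. These counts lie near the shares of all genes tested (12.6% higher and 6.36% lower). Insig1, which holds the SREBP precursors in the endoplasmic reticulum and is itself a SREBP target, had 171 and 198 RPM in the CRAT shRNA libraries, against 341 and 337 RPM in the control shRNA libraries (-0.88 ± 0.10, limma adjusted p = 0.000297). Nr1h2, the oxysterol receptor LXR beta, had 187 and 171 RPM with CRAT shRNA against 42.0 and 41.6 RPM with control shRNA (2.07 ± 0.15, adjusted p = 8.79e-06). Mlxipl, which encodes the carbohydrate-responsive factor ChREBP, had 18.7 and 8.63 RPM with CRAT shRNA against 0.549 and 1.51 RPM with control shRNA (2.80 ± 0.63, limma adjusted p = 0.0129). Its value in control shRNA replicate 2 lay under the level of 3 reads in that library (2.27 RPM). The CRAT shRNA values also rest on few reads, at 3.11 and 0.616 RPM a read. The NF-Y subunit Nfya had 52.9 and 44.4 RPM with CRAT shRNA against 26.8 and 29.5 RPM with control shRNA (0.76 ± 0.22, limma adjusted p = 0.0393). Srebf1, the regulator best known for Fasn, Acaca and Scd, had 109 and 94.9 RPM in the CRAT shRNA libraries against 74.2 and 77.2 RPM in the control shRNA libraries, without overlap, and did not pass (0.42 ± 0.15, adjusted p = 0.0844). Srebf2, the regulator of sterol genes, stood at -0.43 ± 0.14 (adjusted p = 0.07). With voom 7 of the list were higher and 2 lower, beside 3476 higher and 1250 lower over all genes tested. Leaving out CRAT shRNA replicate 1 or 2 also gave more calls, in this list as over all genes. TMM scaling, median-of-ratios scaling and DESeq2 each called 2 higher and 2 lower, and edgeR 4 and 2. Nfya did not pass under TMM scaling (adjusted p = 0.116), and neither Mlxipl (adjusted p = 0.209 and 0.149) nor Nfya (adjusted p = 0.401 and 0.346) passed without control shRNA replicates 1 and 2 in turn.

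Enzymes that put acetyl groups on proteins or take them off were higher in 3 of 26 cases and lower in 1. The counts lie near the shares of all genes tested (12.6% higher and 6.36% lower), and the median of 0.15 was that of all genes. Hdac9, a class IIa deacetylase of muscle, had 6.22 and 4.31 RPM in the CRAT shRNA libraries, against 31.4 and 21.9 RPM in the control shRNA libraries (-2.14 ± 0.39, limma adjusted p = 0.00431). Its value in CRAT shRNA replicate 1 lay under the level of 3 reads in that library (9.33 RPM). The nuclear sirtuin Sirt7 had a value of 1.13, the amino-terminal acetyltransferase subunit Naa15 one of 0.61 and the histone acetyltransferase Kat6a one of 0.59 (adjusted p = 0.0248, 0.0218 and 0.0201). Leaving out CRAT shRNA replicate 1 or 2 gave more calls, in this list as over all genes. The median of the list was then 0.173 and 0.214 in turn, against 0.184 and 0.141 over all genes. TMM scaling left 0 higher and 2 lower, with 6 at an unadjusted p under 0.05 in limma and a median of -0.05, and DESeq2 0 and 1, with 2 at an unadjusted p under 0.05. Under TMM scaling these 3 did not pass (adjusted p = 0.0561, 0.104 and 0.106). Without control shRNA replicate 1 the 4 genes had adjusted p between 0.216 and 0.338, and without control shRNA replicate 2 between 0.15 and 0.346.

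**Figure D3:**
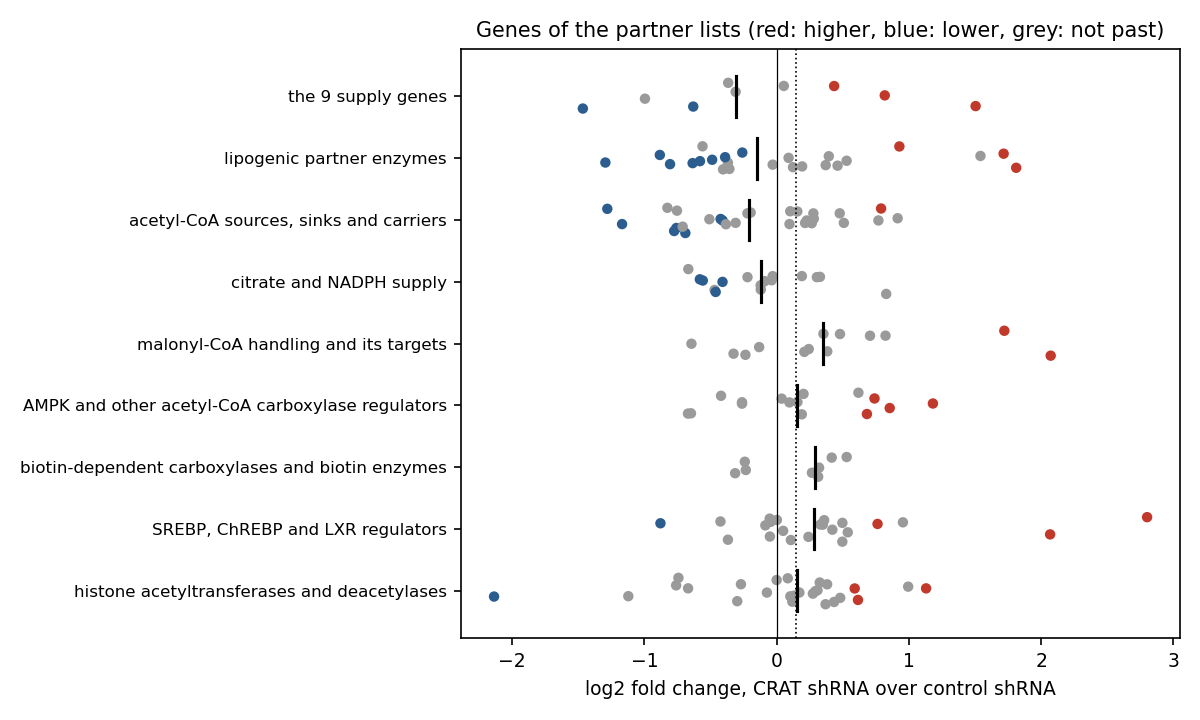
Log2 fold change of CRAT shRNA over control shRNA for each tested gene (points, placed at random heights within a row) of the partner lists, with the 9 genes as the top row; red is higher and blue lower past the threshold, grey did not pass, bars mark each list's median and the dotted line the median of all genes tested. The lipogenic partner row runs from -1.30 to 1.81 with 8 blue and 3 red points, and the biotin row has grey points alone.

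**Figure D4:**
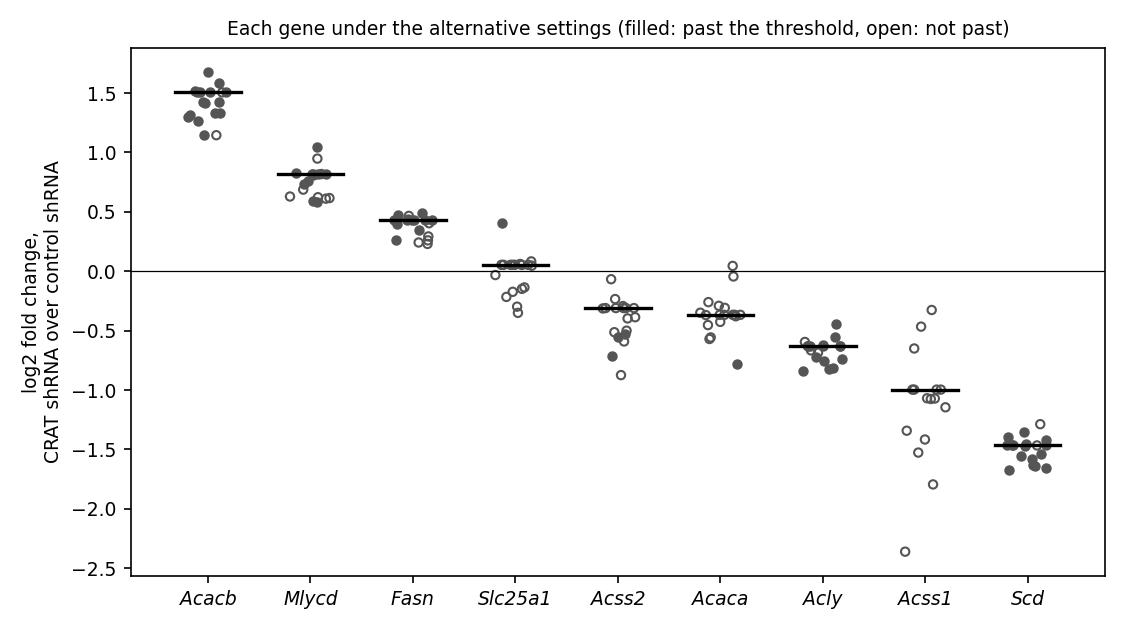
Log2 fold change of each of the 9 genes under the 18 alternative settings (points: filled past the threshold, open not past) and as reported (bars); 2 of the 18 could not be had for Acss1. Points of Acacb, Mlycd and Fasn stay above 0 and those of Scd, Acly, Acss2 and Acss1 below it, while Slc25a1 and Acaca have points on both sides.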

How the data were processed

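The authors deposited one table: a signal for each library, group means, and a p-value with its adjusted form. The submitters' processing notes name kallisto, DESeq2 and the rat build mRatBN7.2; no source used here gives their versions, or how reads were summed to genes. Library values carry the heading TPM, per the file headers, but 100% of the deposited values are whole multiples of one step per library (within 0.02 of a read), so they are RPM without division by length, and division gave back the reads. The 14318 rows describe 14137 gene identifiers, 140 of them on several rows; each was used once.

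Genes averaging 1 RPM or more were fitted as log2(RPM + 1) with limma 3.58.1 in R 4.3.3, CRAT shRNA against control shRNA, with a variance trend and Benjamini-Hochberg adjustment over all 12949 genes (threshold 0.05). Fold changes on that scale understate the change of low genes. edgeR 4.0.16, DESeq2 1.42.0 and voom ran on the recovered reads. The scripts were tested on simulated data. A chi-square test over genes separated the libraries of each pair beyond counting error (1.29 and 1.47 per degree of freedom for CRAT shRNA and control shRNA). Members, lists and tests were chosen with earlier results of these data known. Besides Crat and the 9 genes, the text names up to 4 called genes per list, those with the largest changes, or 2 by mean level where fewer than 2 passed, and the 3 nearest profiles of Acly and of Scd (1 gene under this rule is not reported here); genes outside this rule (Elovl6, Fads2, Scd2, Me1, Cpt1b, Mcat, Oxsm, Srebf1, Srebf2 and markers) were chosen after their values were seen. Sequences come from RefSeq (GRCr8), by symbol, 6 of 9 matched.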

Additional observations from a re-analysis of the deposited data

How the results depend on the processing

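With 2 libraries a group, the calls lean on spread borrowed from other genes. Of the 9 genes, 3 were called higher and 2 lower. Under TMM scaling, median-of-ratios scaling and DESeq2, 1 was called higher (Acacb in each). Without a variance trend 0 were higher and 0 lower, and likewise with every library thinned to 321516 reads in 1 draw, although 4 and 4 had an unadjusted p under 0.05; edgeR called 3 and 3. The thinned data also moved the Crat value to -2.59 (adjusted p = 0.0772) and left Acss1 under the filter, as did a mean of at least 10 RPM. Leaving out 1 library gave 1 to 4 of the 9 higher and 1 to 3 lower, with the fewest calls where a control library was left out; the lone library is then assumed to vary like the others.

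Over all genes, leaving out 1 library gave 419 to 3592 higher and 175 to 2626 lower. The counts were 1007 and 1278 under TMM scaling, 1044 and 1254 under median-of-ratios scaling, 266 and 79 without a variance trend, 109 and 52 after thinning, 3476 and 1250 with voom, 749 higher in DESeq2 and 2065 lower in edgeR. The median of all genes was -0.03 under median-of-ratios scaling, 0.00 in DESeq2 and -0.01 in edgeR.

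Of 160 values for the 9 genes under alternatives, 125 kept direction and side of the threshold, 22 lost the call and 5 gained it. The other 8 changed sign, none of them in a gene that had passed. The filter, trend, prior and replicate-block settings leave the fold change as it is, so direction could not change under them. Slc25a1 was -0.15 under TMM, -0.14 under median of ratios, -0.032 with totals without mitochondrial transcripts, -0.17 with voom, -0.35 in edgeR, -0.22 in DESeq2, -0.298 without CRAT shRNA replicate 1, and 0.406 without CRAT shRNA replicate 2; Acaca was 0.045 and -0.779 without CRAT shRNA replicates 1 and 2 in turn; the causes of these changes were not tested. Acacb and Scd lost the call in limma without a trend (adjusted p = 0.0606 and 0.053) and after thinning (0.0772 for both), and kept it elsewhere. Replicate numbers are shared between the groups, but nothing says that a number marks a pair, and the replicate differences of the groups correlated at r = 0.02 over 7645 genes; with the replicate block the counts were 3 and 2 for the 9 genes, and 1701 and 895 for all. Depth limits Acss1 most, and CRAT shRNA replicate 1 limits every gene of few reads.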
